A study of Mus musculus with 32 samples.

Results

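The 7 genes Acadvl, Acadl, Acadm, Acads, Etfa, Etfb and Etfdh were followed in mouse intestinal stem cells, 7 of the 54418 genes in the deposited count table. They were grouped by their function, as the acyl-CoA dehydrogenases of mitochondrial fatty acid β-oxidation and the electron transfer flavoproteins that accept their electrons. The study's question was the response of these cells to a high-fat diet and the contribution of the fatty acid receptors encoded by Ppara and Ppard. Crypt cells were stained for the epithelial surface protein CD326 and with the viability dye DAPI, the GFP-high cells were sorted, and their polyadenylated RNA was counted near the 3' end of each transcript. The 32 libraries form 8 groups of 4, all with the strain label C57BL6. The mutant groups are PparDA, which carries both Ppard-fl/fl and Ppara-null, then PparD (Ppard-fl/fl) and PparA (Ppara-null), and they were set against WT. Each genotype was on a high-fat or a control diet. The labels name no Cre line or promoter for the floxed alleles, no age and no length of diet. Separate animals for the 4 libraries of a group are not stated, and p-values then measure only the spread between these libraries, part of which may be technical.

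Mitochondrial β-oxidation shortens a fatty acid in repeated rounds, and the first reaction of each round is a dehydrogenation by an acyl-CoA dehydrogenase that prefers a certain chain length. Acadvl encodes the membrane-bound enzyme for very long chains, Acadl the one for long chains, Acadm the one for medium chains and Acads the one for short chains. Their electrons pass to the electron transfer flavoprotein, a heterodimer of the Etfa and Etfb products, and from there through the Etfdh product, ETF-ubiquinone oxidoreductase, to ubiquinone and complex III. PPAR receptors bind DNA with RXR at direct repeats of AGGTCA spaced by a single base (DR1), and fatty acid oxidation genes are among their classical targets in liver. The intestinal stem cell lies at the crypt base between Paneth cells and can burn fatty acids.

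Promoters are shown for 3 members whose transcripts behaved differently below: Acadvl, which differed by diet and by genotype, and the flavoprotein subunits Etfb, which rose on the high-fat diet over the genotypes, and Etfa, which did not pass any test. Each runs 5′ to 3′ on the gene's strand, from 250 bases before to 50 bases after the start annotated by RefSeq on GRCm38.p6 (the assembly called mm10). The windows are chr11:70015379-70015678 (minus strand) for Acadvl, chr7:43443822-43444121 (plus strand) for Etfb and chr9:55512194-55512493 (minus strand) for Etfa. Capitals mark an exact AGGTCA in Acadvl and, in Etfb and Etfa, the placement closest to AGGTCANAGGTCA, which lies on the reverse strand in both.
Acadvl: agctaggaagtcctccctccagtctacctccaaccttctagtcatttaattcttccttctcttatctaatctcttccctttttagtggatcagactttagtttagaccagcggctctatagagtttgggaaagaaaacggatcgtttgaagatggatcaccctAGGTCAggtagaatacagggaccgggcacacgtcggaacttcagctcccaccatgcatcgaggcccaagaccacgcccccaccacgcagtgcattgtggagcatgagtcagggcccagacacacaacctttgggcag
Etfb: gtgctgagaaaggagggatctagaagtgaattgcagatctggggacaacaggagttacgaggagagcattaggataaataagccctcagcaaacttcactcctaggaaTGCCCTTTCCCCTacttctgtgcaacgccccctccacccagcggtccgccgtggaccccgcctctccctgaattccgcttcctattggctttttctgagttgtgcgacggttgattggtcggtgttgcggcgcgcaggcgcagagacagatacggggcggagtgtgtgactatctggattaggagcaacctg
Etfa: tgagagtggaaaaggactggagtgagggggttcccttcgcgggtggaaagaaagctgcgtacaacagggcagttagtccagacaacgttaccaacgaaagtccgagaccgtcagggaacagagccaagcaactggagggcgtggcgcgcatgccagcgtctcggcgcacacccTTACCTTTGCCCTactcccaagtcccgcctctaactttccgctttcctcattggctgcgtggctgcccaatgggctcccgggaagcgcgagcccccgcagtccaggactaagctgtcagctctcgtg

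On GRCm38 (GENCODE M21) the genes lie at chr11:70010183-70015411 (Acadvl), chr1:66830839-66863277 (Acadl), chr3:153922357-153944632 (Acadm), chr5:115110299-115119346 (Acads), chr9:55454508-55512243 (Etfa), chr7:43444083-43457800 (Etfb) and chr3:79603788-79629500 (Etfdh). Etfb is on the plus strand and the other 6 are on the minus strand. The last exon, where 3' counting reads a transcript, overlaps Dvl2 on the opposite strand for Acadvl and Gm45233 on the same strand for Etfb. Whether counting used strand is not given, but Dvl2 had at most 4 counts in a library and Gm45233 had 0.

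All 32544 RefSeq promoters of this length were searched on both strands for AGGTCANAGGTCA, of whose letters 12 are fixed. The closest placement in Etfa matched 10 of the 12 bases, at −77 to −65 from the start, and 3.87% of all promoters held a placement at least as close. Etfb matched 9, at −142 to −130, as did Acadm, a level that 24.7% of promoters reach. Acadvl, Acads and Etfdh matched 8 (79.8% of promoters) and Acadl 7 (99.9%). An exact AGGTCA on either strand, which can also be part of the longer motif, stood in the windows of Acadvl, at −87, and Acadm, and in 16.2% of all promoters. These matches describe letters in a 300 base window and say nothing about binding.

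The libraries held 612672 to 724155 counts and 11683 to 12212 detected genes each. Of all genes, 5872 passed a filter on low counts and were tested. Levels are given as counts per 1000000 counts in these genes (CPM), each library's total being scaled by its edgeR normalisation factor (TMM, 0.938 to 1.07). This scale does not compare one gene's level with another's. Ppara had 0 to 5 and Ppard 0 to 7 counts in a library, too few to check the genotype labels. Stem cell markers summed to 8960 to 15200 CPM, mostly Olfm4, while immune markers summed to 0 to 17.5 CPM. Of 7 stromal and endothelial markers, summing to 3.11 to 20.5 CPM, Col3a1 and Dcn were at 0 and the endothelial Pecam1 was highest and alone passed the filter. The numbered libraries form 4 runs of 8 that each hold every group once. Xist, expressed from the inactive X chromosome, stood at 479 to 956 CPM in runs 1 and 3 and at no more than 9.98 CPM in runs 2 and 4, while Y-linked Ddx3y was at 0 CPM in runs 1 and 3 and at 14.6 to 39.9 CPM in runs 2 and 4. Each group thus held libraries with and without Y-linked transcripts, and its 4 libraries cannot all be repeats from 1 animal. Estimates from each of these pairs of runs stand beside the calls below. In each mutant the high-fat library has the number after its control library in every run, so that place and diet cannot be told apart there.

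Of the 7 members, 6 passed the filter and Acads did not. Acads had 0 to 5 counts in each library and 85 in all 32, with group means of 4.81 CPM in WT high-fat and 3.72 CPM in WT control cells, and of 5.23 CPM in PparDA high-fat and 2.34 CPM in PparDA control cells. Exact two-sided permutation tests of 4 against 4 libraries gave p from 0.14 to 1.0 in the 12 comparisons of 2 groups, where the smallest possible p is 0.029 (lowest adjusted p = 0.68). After that adjustment a single comparison could not have passed in this design, whatever the counts, so these tests show neither a difference in Acads nor its absence. Over the 32 libraries Acadvl ranged from 33 to 132 counts, Acadl from 2 to 24, Acadm from 61 to 133, Etfa from 60 to 134, Etfb from 193 to 440 and Etfdh from 26 to 68. Acadl is thus read from few counts, and its folds are the least precise.

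**Figure D1:**
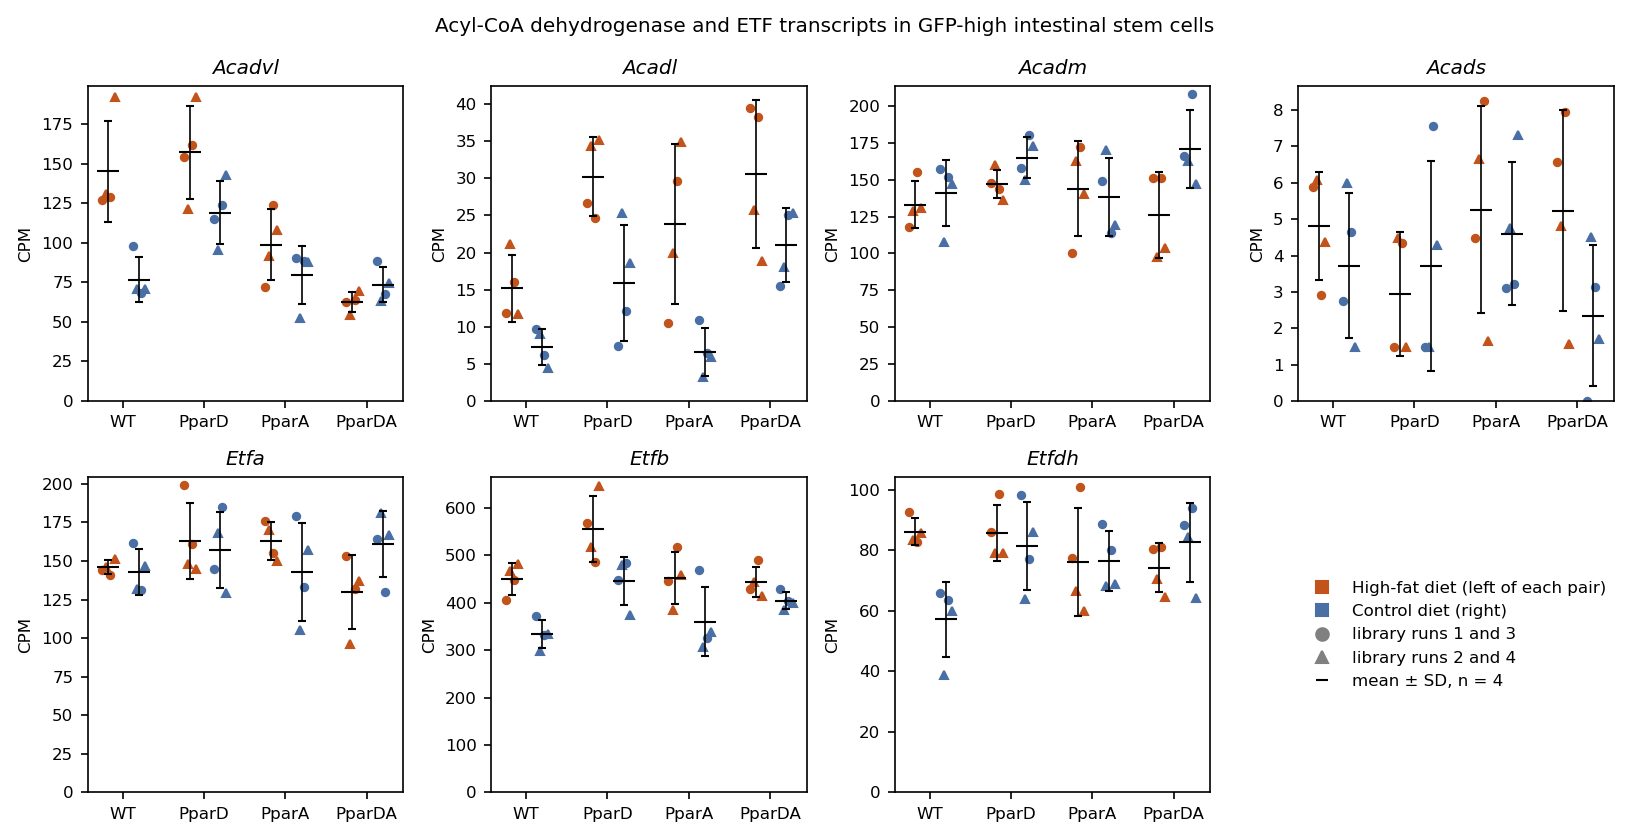
CPM of each member (y axis, from 0) in every library by genotype (x axis), high-fat left and control right of each pair, with the mean ± SD of 4 libraries as bars and the marker shape giving the run. On average Acadvl is lowest in PparDA high-fat cells, at 54.6 to 69.2 CPM, and Acadl is highest there, at 18.9 to 39.5 CPM.

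Acadvl rose on the high-fat diet in WT stem cells. Acadl, Etfb and Etfdh were also higher in each high-fat library than in any control library, without passing the test. Acadm and Etfa, the medium-chain enzyme and the α subunit of the flavoprotein, stood at like levels on both diets. Of the 6 tested members 1 was called (edgeR's quasi-likelihood test, Benjamini-Hochberg adjusted p under 0.05 over all tested genes), where 0.102% of all tested genes were. At an unadjusted p under 0.05 were 4 of 6, against 7.66% of all genes. The ranges were apart for 4 of 6, against 4.29% of all genes.

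Acadvl had 127, 131, 129 and 192 CPM in WT high-fat cells, against 97.7, 70.4, 68.4 and 70.4 CPM in WT control cells. The ranges did not overlap, and on each diet a single library stood above the other 3. The log2 fold change was 0.91 ± 0.19 (SE; edgeR adjusted p = 0.036), or 1.88-fold. With 2 libraries a group, runs 1 and 3 gave 0.61 (adjusted p = 0.5) and runs 2 and 4 gave 1.21 (0.69). The call was lost without any of the libraries 9, 10, 17, 18, 25 and 26 (adjusted p = 0.075 to 0.22), while the estimate stayed between 0.74 and 1.05. It was also lost with limma on the deposited log2 values (adjusted p = 0.15), with library totals as scaling (0.16) and with only the WT groups in the fit (0.25). The mitochondrially encoded share of counts was 12.6 to 14.8% in WT high-fat and 13.8 to 16.8% in WT control libraries, lower on the high-fat diet in 4 of 4 runs, and its part in the result was not tested.

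Acadl had 11.8, 21.2, 16 and 11.7 CPM in WT high-fat cells, against 9.63, 8.98, 6.22 and 4.4 CPM in WT control cells. High-fat libraries held 8 to 14 counts and control libraries 3 to 7, and the ranges were apart. The log2 fold change was 1.02 ± 0.42 (edgeR adjusted p = 0.56). Etfb had 405, 467, 447 and 482 CPM in WT high-fat cells, against 373, 299, 331 and 333 CPM in WT control cells, a log2 fold change of 0.43 ± 0.12 (edgeR adjusted p = 0.32). Etfdh had 92.7, 83.5, 82.8 and 85.9 CPM in WT high-fat cells, against 66, 38.9, 63.7 and 60.1 CPM in WT control cells. Its log2 fold change was 0.59 ± 0.17 (edgeR adjusted p = 0.33), and its lowest library, control library 9, was set well below the other 3 controls.

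Acadm averaged 133 ± 15.8 CPM in WT high-fat and 141 ± 22.5 CPM in WT control cells, and Etfa 146 ± 4.43 CPM in WT high-fat and 143 ± 14.9 CPM in WT control cells (SD, n = 4 each). Both pairs of ranges overlapped, with log2 fold changes of −0.08 ± 0.17 for Acadm and 0.03 ± 0.15 for Etfa (edgeR adjusted p = 0.96 and 0.99). Within a library the ratio of Etfb to Etfa counts averaged 3.09 in WT high-fat and 2.34 in WT control libraries. The ratio of Acadvl to Acadm counts averaged 1.1 in WT high-fat and 0.551 in WT control libraries, and gene length is the same in both groups. Both ratios were chosen after the values were seen and were not tested.

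Of 16 tested stem cell markers 5 were higher on the high-fat diet in WT, with a median log2 fold change of −0.23. Of the 16, 3 were at an unadjusted p under 0.05. None was called by edgeR or limma, or by DESeq2 where it gave an adjusted p. Paneth cell markers moved in the same direction as Acadvl in WT. All 10 of the list were higher on the high-fat diet, 4 at an unadjusted p under 0.05 and 0 called by edgeR or limma, or by DESeq2 among the 8 it gave an adjusted p, with sums of 7360 to 44100 CPM in WT high-fat cells and 4170 to 16100 CPM in WT control cells, highest in library 2. Goblet markers, 7 of 7 higher and 1 at an unadjusted p under 0.05, summed to 2860 to 6200 CPM in WT high-fat and 1590 to 4450 CPM in WT control cells. Enteroendocrine markers, 5 of 5 higher and 3 at an unadjusted p under 0.05, summed to 87.4 to 302 CPM in WT high-fat and 73.4 to 136 CPM in WT control cells, and no gene of either list was called by edgeR or limma, or by DESeq2 where it gave an adjusted p. Their part in the result was not tested. In bulk RNA of sorted cells, fewer cells of a type and less RNA per cell cannot be told apart.

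In PparD cells 5 of 6 members were higher on the high-fat diet and 0 were called by edgeR, against 0.0851% of all genes. Of the 6, 3 were at an unadjusted p under 0.05, against 4.99% of all genes, and 0 were called by DESeq2 or limma. Acadvl had 154, 121, 162 and 192 CPM in PparD high-fat cells, against 115, 95.1, 124 and 143 CPM in PparD control cells. These ranges overlapped, and the log2 fold change was 0.40 ± 0.18 (edgeR adjusted p = 0.93). Acadl had 26.7, 34.3, 24.7 and 35.2 CPM in PparD high-fat cells, against 7.45, 25.3, 12.1 and 18.6 CPM in PparD control cells. The ranges overlapped through control library 11 alone, and the log2 fold change was 0.92 ± 0.33 (edgeR adjusted p = 0.79). Etfb, at 569, 518, 486 and 646 CPM in PparD high-fat and 448, 480, 483 and 374 CPM in PparD control cells, was the member whose ranges were apart, against 3.42% of all genes, with a log2 fold change of 0.31 ± 0.12 (edgeR adjusted p = 0.79).

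In PparA cells the long-chain gene Acadl had the largest difference by diet of all members and genotypes, while the ranges of all 6 members overlapped between diets, where those of 3.03% of all genes were apart. Acadl had 10.5, 20, 29.7 and 34.9 CPM in PparA high-fat cells, against 10.9, 3.17, 6.42 and 5.86 CPM in PparA control cells. High-fat library 6 and control library 5, both of run 1, had nearly the same level, and the other 3 high-fat libraries were above all controls. The log2 fold change was 1.81 ± 0.41 (edgeR adjusted p = 0.066). Runs 1 and 3 gave 1.17 (adjusted p = 1.0) and runs 2 and 4 gave 2.54. Without library 5 the adjusted p was 0.039 and without library 6 it was 0.0086. So 0 of 6 members were called by edgeR, against 0.136% of all genes, and 0 by limma, while DESeq2 gave no adjusted p for Acadl. At an unadjusted p under 0.05 were 2 of the 6, Acadl among them, against 5.79% of all genes. The other of the 2 was Etfb, which averaged 452 ± 54.9 CPM in PparA high-fat and 360 ± 73.4 CPM in PparA control cells, a log2 fold change of 0.33 ± 0.12 (edgeR adjusted p = 0.7).

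PparDA cells, which carry both mutant alleles, had 4 of 6 members lower on the high-fat diet, and their median log2 fold change was −0.19, beside −0.002 over all genes. None was called by edgeR, against 0.0341% of all genes, or by limma, while DESeq2 gave no adjusted p for the members. At an unadjusted p under 0.05 were 2 members, against 8.79% of all genes. The ranges of 0 members were apart, against 4.33% of all genes. Acadm averaged 126 ± 29.2 CPM in PparDA high-fat and 171 ± 26.3 CPM in PparDA control cells, a log2 fold change of −0.44 ± 0.17 (edgeR adjusted p = 0.42). Etfa averaged 130 ± 23.9 CPM in PparDA high-fat and 161 ± 21.6 CPM in PparDA control cells, a log2 fold change of −0.31 ± 0.15 (edgeR adjusted p = 0.56). Acadvl had 62.5, 54.6, 63.7 and 69.2 CPM in PparDA high-fat cells, against 88.3, 63.3, 67.4 and 74.3 CPM in PparDA control cells, with overlapping ranges and a log2 fold change of −0.23 ± 0.20 (edgeR adjusted p = 0.8). Acadl stood at 39.5, 25.7, 38.2 and 18.9 CPM in PparDA high-fat and 15.5, 18.1, 25.1 and 25.3 CPM in PparDA control cells, a log2 fold change of 0.54 ± 0.32 (edgeR adjusted p = 0.65).

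Averaged over the 4 genotypes, the high-fat diet raised Acadl and Etfb. Of the 6 members 2 were called, against 0.324% of all genes. The mean log2 fold change of Acadl was 1.07 ± 0.19 (edgeR adjusted p = 0.0031), and its estimate was above 0 in each genotype. That of Etfb was 0.30 ± 0.06 (edgeR adjusted p = 0.013), between 0.14 in PparDA and 0.43 in WT. Neither was called within a pair of runs, where the estimates were 1.06 and 1.13 for Acadl and 0.22 and 0.39 for Etfb. Acadvl did not pass, at 0.35 ± 0.09 (edgeR adjusted p = 0.13), nor did Acadm, Etfa and Etfdh, at −0.16, −0.01 and 0.13, while with run as a term in the fit Acadvl did (0.34, edgeR adjusted p = 0.031). Of 16 tested stem cell markers 3 were higher on the high-fat diet, with a median log2 fold change of −0.12. Of the 16, 5 were at an unadjusted p under 0.05 and 0 were called by edgeR, DESeq2 or limma. Goblet, Paneth and enteroendocrine markers moved in the same direction as Acadl and Etfb. Of the goblet markers 7 of 7 were higher on the high-fat diet, 6 at an unadjusted p under 0.05, and of the Paneth markers 10 of 10, 4 at an unadjusted p under 0.05, with 0 called in either list by edgeR or limma, or by DESeq2 where it gave an adjusted p. Of the enteroendocrine markers 5 of 5 were higher, 3 at an unadjusted p under 0.05, 0 called by edgeR or limma and 1 by DESeq2. Of 13 enterocyte markers 7 were higher and edgeR called 1, Fabp2, an intestinal fatty acid binding protein gene (0.53 ± 0.12, edgeR adjusted p = 0.034). DESeq2 called 1 of the 13 and limma 0. Fabp2 is also in the list of PPAR targets below. The mitochondrially encoded share was lower on the high-fat diet in 14 of 16 pairs of libraries of a run and genotype. The part of these in the result was not tested.

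**Figure D2:**
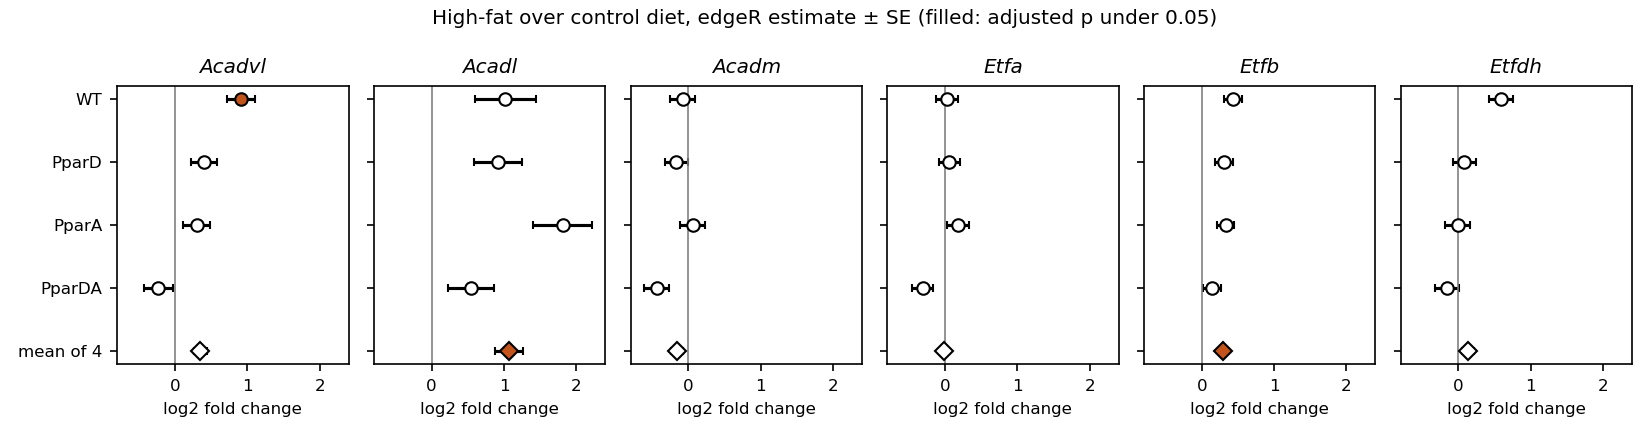
log2 fold change of high-fat over control diet (x axis) for each tested member by genotype and for their mean (rows), as edgeR estimate ± SE from 4 libraries a group, filled where the adjusted p was under 0.05. Acadvl is called in WT, at 0.91, and lies at −0.23 in PparDA, while Acadl lies above 0 in each row.

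Whether the diet response differed from that in WT was tested directly, as the difference of the diet effects. For PparDA all 6 estimates were below 0, with a median of −0.42 beside −0.003 over all genes, and 0 were called by edgeR, DESeq2 or limma, where edgeR called 0 of all genes. The WT libraries enter each of these differences. Acadvl had the largest, at −1.14 ± 0.27 (edgeR adjusted p = 0.43), and with run as a term in the fit it was called (−1.13, edgeR adjusted p = 0.045). Runs 1 and 3 gave −0.93 and runs 2 and 4 gave −1.35. Etfdh followed at −0.75 ± 0.23 (edgeR adjusted p = 0.54), and these 2 were the members at an unadjusted p under 0.05, against 5.77% of all genes. The corresponding differences of Acadvl were −0.51 ± 0.26 for PparD and −0.61 ± 0.27 for PparA (edgeR adjusted p = 1.0 and 0.57), where 0 members were called by edgeR, against 0.0511% of all genes for PparD and 0.153% for PparA. At an unadjusted p under 0.05 there was 1 member for PparD, against 3.61% of all genes, and there were 2 for PparA, against 8.19%. For Acadl the difference was −0.48 ± 0.52 for PparDA and 0.78 ± 0.61 for PparA, each with an SE near the size of the estimate. Beside these values, the same difference for PparDA was below 0 for 10 of 10 Paneth markers, with a median of −1.77 and 0 called by edgeR, DESeq2 or limma or at an unadjusted p under 0.05. It was below 0 for 7 of 7 goblet markers, with a median of −0.61, and for 4 of 5 enteroendocrine markers, with a median of −0.85, each list with 2 at an unadjusted p under 0.05 and 0 called by edgeR, DESeq2 or limma. Paneth sums were 10200 to 19800 CPM in PparDA high-fat and 3880 to 41800 CPM in PparDA control cells, and the part of these markers in the result was not tested.

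On the high-fat diet the genotypes differed in Acadvl, which fell in PparDA cells relative to WT and relative to PparD. The 4 PparDA high-fat libraries had 54.6 to 69.2 CPM, the 4 PparA high-fat libraries 71.7 to 124 CPM, the 4 PparD high-fat libraries 121 to 192 CPM and the 4 WT high-fat libraries 127 to 192 CPM. No PparDA library reached the lowest library of another genotype. Against WT the log2 fold change was −1.21 ± 0.19 (edgeR adjusted p = 0.00036). Runs 1 and 3 gave −1.03 (adjusted p = 0.076) and runs 2 and 4 gave −1.37 (0.055). Here 1 of 6 members was called, against 1.57% of all genes, and the ranges of 2 were apart, Acadvl and Etfdh, against 7.87%. Against PparD it was −1.33 ± 0.19 (edgeR adjusted p = 0.00011). Runs 1 and 3 gave −1.34 (adjusted p = 0.02) and runs 2 and 4 gave −1.33 (0.074). This was again 1 of 6 members, against 1.58% of all genes, and the 1 with ranges apart, against 7.97%. These comparisons share the PparDA libraries, and neither call was lost on leaving out a single library. On the control diet Acadvl was lower in PparDA than in PparD cells as well, at 63.3 to 88.3 CPM and 95.1 to 143 CPM. That pair was not tested, so the difference from PparD is not shown to be particular to the high-fat diet.

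Against PparA, Acadvl in PparDA high-fat cells did not pass, at −0.66 ± 0.20 (edgeR adjusted p = 0.11), though DESeq2 called it (0.039), as did edgeR with run as a term in the fit (0.025). No other member was called by edgeR, or by DESeq2 among the 5 it gave an adjusted p, so that edgeR called 0 of 6, against 0.272% of all genes. Acadvl and Etfa were at an unadjusted p under 0.05, against 12.5% of all genes. Acadvl was the member with ranges apart, against 6.71% of all genes. PparA high-fat cells had an Acadvl level 0.55 ± 0.18 lower on the log2 scale than WT high-fat cells (edgeR adjusted p = 0.18), with ranges apart as in 6.4% of all genes. Between these groups 12 of 13 enterocyte markers were higher in PparA, 9 at an unadjusted p under 0.05. Of the 13, edgeR and limma called 0 and DESeq2 1. The mitochondrially encoded share of counts was higher in PparA than in WT high-fat libraries in 4 of 4 runs. The part of these in the Acadvl difference was not tested. PparD high-fat cells overlapped WT high-fat cells in Acadvl.

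Acadl was higher on average in each mutant than in WT on the high-fat diet, without a call. It had 39.5, 25.7, 38.2 and 18.9 CPM in PparDA, 26.7, 34.3, 24.7 and 35.2 CPM in PparD and 10.5, 20, 29.7 and 34.9 CPM in PparA high-fat cells, against 11.8, 21.2, 16 and 11.7 CPM in WT high-fat cells. PparD lay above WT in each library, while PparDA and PparA overlapped it. The log2 fold changes against WT of 1.0 ± 0.33 in PparDA and 0.99 ± 0.33 in PparD did not pass (edgeR adjusted p = 0.14 and 0.83). In PparD against WT high-fat cells edgeR called 0 of 6 members, against 0.017% of all genes. Of the 6, 2 were at an unadjusted p under 0.05, against 3.78%, and 2 had ranges apart, Acadl and Etfb, against 3.18%. In PparA against WT high-fat cells edgeR called 0 of 6, against 0.749%, with 1 at an unadjusted p under 0.05, against 11.7%. DESeq2 and limma called 0 in both. Within a library the ratio of Acadl to Acadvl counts averaged 0.494 in PparDA high-fat and 0.11 in WT high-fat cells, and 0.294 in PparDA control and 0.0949 in WT control cells. That ratio too was chosen after the values were seen and was not tested.

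No flavoprotein gene was called by edgeR between genotypes on this diet. Etfb averaged 444 ± 31.8 CPM in PparDA, 555 ± 69.8 CPM in PparD and 452 ± 54.9 CPM in PparA high-fat cells, against 450 ± 33.6 CPM in WT high-fat cells. Etfdh averaged 74.2 ± 8.1 CPM in PparDA high-fat and 86.2 ± 4.53 CPM in WT high-fat cells, and these ranges were apart without a call. Beside these comparisons, 12 of 13 enterocyte markers were higher in PparDA than in WT high-fat cells, 8 at an unadjusted p under 0.05 and 0 called by edgeR, DESeq2 or limma, with sums of 1810 to 3260 CPM in PparDA high-fat and 1450 to 1940 CPM in WT high-fat cells. Of 10 Paneth markers 2 were higher in PparDA than in WT high-fat cells, 1 at an unadjusted p under 0.05 and 0 called by edgeR, DESeq2 or limma. Against PparD, whose enterocyte sums were 1550 to 1880 CPM, 12 of 13 enterocyte markers were higher in PparDA as well. Of these 13, 8 were at an unadjusted p under 0.05, 0 called by edgeR and 1 each by DESeq2 and limma. Paneth markers were higher than in PparD for 9 of 10, 0 at an unadjusted p under 0.05. There 7 of 7 goblet markers were higher too, 3 at an unadjusted p under 0.05, and 5 of 5 enteroendocrine markers, 2 at an unadjusted p under 0.05, with 0 called by edgeR, DESeq2 or limma in either list. The mitochondrially encoded share of counts was 13.8 to 16.6% in PparDA high-fat, 12.5 to 14.4% in PparD high-fat and 12.6 to 14.8% in WT high-fat libraries, higher in PparDA than in WT in 4 of 4 runs and than in PparD in 3 of 4. The part of other cell types and of this share in the Acadvl result was not tested.

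On the control diet Acadl was higher in PparDA than in WT cells. It had 15.5, 18.1, 25.1 and 25.3 CPM in PparDA control cells, against 9.63, 8.98, 6.22 and 4.4 CPM in WT control cells. The ranges were apart, with 10 to 16 counts in PparDA control libraries and 3 to 7 in WT control libraries. The log2 fold change was 1.49 ± 0.40 (edgeR adjusted p = 0.046). Runs 1 and 3 gave 1.31 (adjusted p = 0.4) and runs 2 and 4 gave 1.68 (0.21). So 1 of 6 members was called, against 1.87% of all genes, and the ranges of 2 were apart, Acadl and Etfb, against 7.8%. The call was lost without any of the libraries 1, 9, 15, 17, 23, 26 and 31 (adjusted p = 0.068 to 0.13), with DESeq2 (0.059), with library totals (0.051) and with a looser filter (0.074). Beside it, 7 of 7 tested goblet cell markers were higher, and 2 were called by edgeR, 2 by DESeq2 and 0 by limma. Their sums were 2860 to 6800 CPM in PparDA control and 1590 to 4450 CPM in WT control cells. Paneth markers, 10 of 10 higher, 1 at an unadjusted p under 0.05 and 0 called by edgeR, DESeq2 or limma, summed to 3880 to 41800 CPM in PparDA control and 4170 to 16100 CPM in WT control cells. Of the enteroendocrine markers 4 of 5 were higher and 1 was called by edgeR and DESeq2, Reg4 (1.49 ± 0.40, edgeR adjusted p = 0.043), with sums of 133 to 319 CPM in PparDA control and 73.4 to 136 CPM in WT control cells. Enterocyte markers were higher for 13 of 13, 4 at an unadjusted p under 0.05 and 0 called by edgeR, DESeq2 or limma, with sums of 2050 to 2430 CPM in PparDA control and 1360 to 1580 CPM in WT control cells. Their part in the result was not tested.

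In PparD control cells 6 of 6 members were above WT control cells and 0 were called by edgeR, DESeq2 or limma, against 0.204% of all genes by edgeR. Of the 6, 4 were at an unadjusted p under 0.05, against 7.71% of all genes. The median log2 fold change was 0.46, beside 0.005 over all genes. Beside these members, 0 of 7 goblet, 0 of 5 enteroendocrine, 1 of 10 Paneth, 1 of 13 enterocyte and 9 of 16 stem cell markers were higher. At an unadjusted p under 0.05 were 2 goblet and 2 stem cell markers. None of these markers was called by edgeR or limma, or by DESeq2 where it gave an adjusted p. The part of these markers was not tested. Acadvl had 115, 95.1, 124 and 143 CPM in PparD control cells, against 97.7, 70.4, 68.4 and 70.4 CPM in WT control cells, and the ranges overlapped by WT library 1 and PparD library 11. The log2 fold change was 0.63 ± 0.19 (edgeR adjusted p = 0.29). Etfb averaged 446 ± 50.7 CPM in PparD control and 334 ± 30 CPM in WT control cells, and its ranges were the only ones apart (0.42 ± 0.12, edgeR adjusted p = 0.26; 3.95% of all genes). Etfdh averaged 81.4 ± 14.5 CPM in PparD control, 76.5 ± 9.79 CPM in PparA control and 82.7 ± 13 CPM in PparDA control cells, against 57.2 ± 12.4 CPM in WT control cells. The comparisons share those WT libraries, and the log2 fold changes of Etfdh were 0.51 ± 0.17 in PparD, 0.42 ± 0.17 in PparA and 0.53 ± 0.17 in PparDA, none called (edgeR adjusted p = 0.34, 0.42 and 0.11), though with run as a term in the fit that in PparDA was (0.54, edgeR adjusted p = 0.029). In PparA against WT control cells edgeR, DESeq2 and limma called 0 of 6 members, against 0.562% of all genes by edgeR. Etfdh alone was at an unadjusted p under 0.05, against 8.89% of all genes, and alone had ranges apart, against 4.05%.

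**Figure D3:**
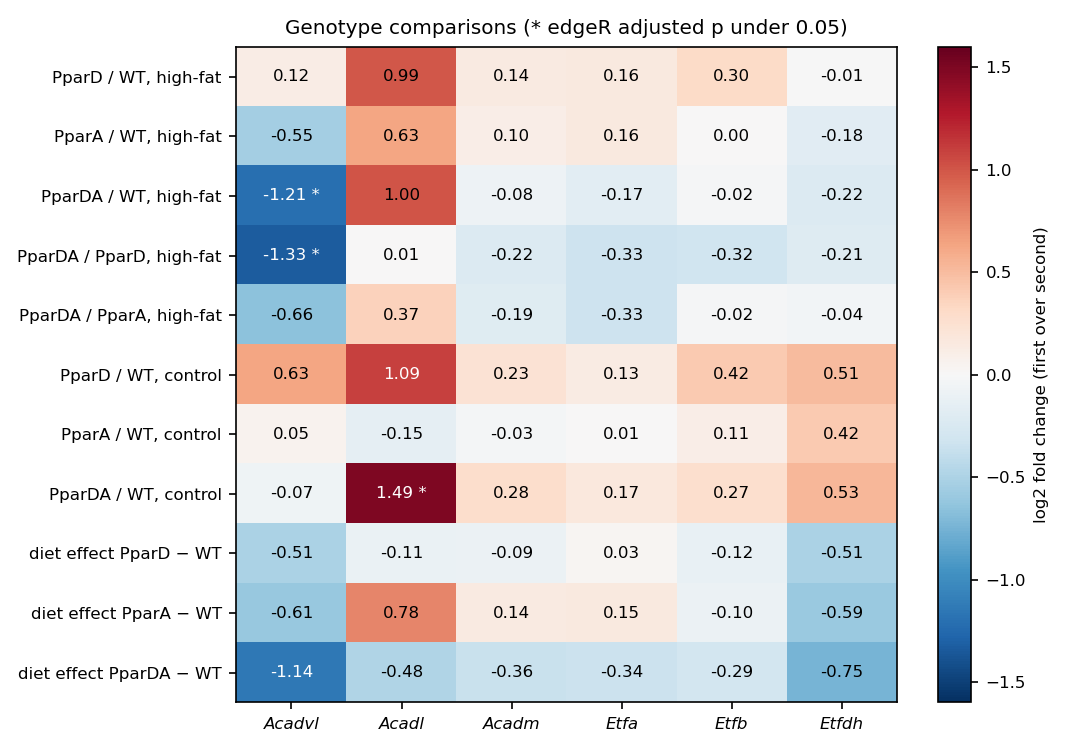
log2 fold changes (colour and printed value) of the tested members (columns) between genotypes on each diet and of the differences between diet effects (rows), the group named first over the second, with an asterisk where the edgeR adjusted p was under 0.05. Acadvl is called lower in PparDA than in WT and PparD on the high-fat diet, at −1.21 and −1.33, and Acadl higher in PparDA than in WT on the control diet, at 1.49.

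The order of the group means differed between members. Acadvl was highest in PparD high-fat cells, at 157 ± 29.4 CPM, and lowest in PparDA high-fat cells, at 62.5 ± 6.04 CPM, a ratio of 2.51. For Acadl the ratio of the highest to the lowest group mean was 4.65, between PparDA high-fat cells at 30.6 ± 9.97 CPM and PparA control cells at 6.58 ± 3.2 CPM. For Etfb the ratio was 1.66, with 555 CPM in PparD high-fat and 334 CPM in WT control cells, and for Etfdh it was 1.51, between WT high-fat and WT control cells. Acadm and Etfa had ratios of 1.36 and 1.25 and were both lowest in PparDA high-fat cells. Neighbours in these orders overlapped in their ranges for every tested member, except Acadl in WT high-fat cells next above WT control cells.

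Over the 32 libraries the 15 pairs of tested members correlated with Pearson r between 0.11 and 0.71, with a median of 0.25, and between −0.14 and 0.42 with the group means removed. The highest pairs were Acadl with Etfb (0.71) and Acadvl with Etfb (0.60). The libraries share their groups, runs and depth, so these values only describe them. The genes whose levels were most like the mean of the members, among 5794 genes of at least 10 CPM and over 32 libraries, included Hadhb, the β subunit of the mitochondrial trifunctional protein (r = 0.85), and Eci2, an enoyl-CoA isomerase (0.78). They also included Cpt1a, the carnitine palmitoyltransferase of the outer membrane (0.75), and Acaa2, the thiolase of the last step (0.75). With run means removed the r of Hadhb, Eci2 and Acaa2 was 0.86, 0.86 and 0.83, and that of Cpt1a was 0.74.

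Of 12 genes of the carnitine shuttle and the later steps of β-oxidation, 3 rose on the high-fat diet in WT, all of the later steps. The estimates of 11 were above 0, limma called 1 and DESeq2 3, with a median log2 fold change of 0.61. Besides Acaa2, called at 0.80 ± 0.16 (edgeR adjusted p = 0.035), these were Eci2 at 1.09 ± 0.23 (0.04) and Ech1, a dienoyl-CoA isomerase, at 0.67 ± 0.12 (0.015). The shuttle genes Cpt1a, Cpt2 and Slc25a20 did not pass, at 1.06 ± 0.38, 0.67 ± 0.33 and 0.64 ± 0.29 (edgeR adjusted p = 0.53, 0.65 and 0.63). In PparDA 6 of 12 were higher on the high-fat diet with a median of 0.00, and 0 were called by edgeR or limma or at an unadjusted p under 0.05, while DESeq2 gave an adjusted p for 0 of the 12. The difference of the PparDA from the WT diet effect was below 0 for 12 of 12, with a median of −0.55, 4 at an unadjusted p under 0.05 and 0 called by edgeR, DESeq2 or limma. Over the 4 genotypes 4 of 12 rose, Hadha, the α subunit of the trifunctional protein, among them (0.40 ± 0.09, edgeR adjusted p = 0.028). On the high-fat diet Eci2 fell in PparDA cells by both comparisons, with 86.1 ± 9.47 CPM in PparDA, 203 ± 13.9 CPM in PparD and 161 ± 27.9 CPM in WT high-fat cells. The log2 fold changes were −1.23 ± 0.22 against PparD and −0.90 ± 0.23 against WT (edgeR adjusted p = 0.0026 and 0.035). Slc25a20, the carnitine-acylcarnitine carrier, was called lower in PparDA than in PparD only (−1.12 ± 0.27, edgeR adjusted p = 0.026). It had 36 ± 4.57 CPM in PparDA, 40.6 ± 11.5 CPM in WT and 78.8 ± 3.22 CPM in PparD high-fat cells. Against WT the log2 fold change was −0.17 ± 0.28 in PparDA and 0.95 ± 0.26 in PparD, neither called (edgeR adjusted p = 0.87 and 0.52).

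Neighbouring genes of the electron path did not pass edgeR's test in any comparison. Of 8 other acyl-CoA dehydrogenases, some of which serve amino acid breakdown, 5 were tested. Of these 0 were called by edgeR or limma, or by DESeq2 where it gave an adjusted p. At most 1 was at an unadjusted p under 0.05 in a comparison. In WT 4 of the 5 were higher on the high-fat diet with a median of 0.22, and the smallest p for the mean diet effect were those of Ivd, the isovaleryl-CoA dehydrogenase of leucine breakdown (−0.19 ± 0.11, edgeR adjusted p = 0.64), and Acad11 (0.30 ± 0.21, edgeR adjusted p = 0.73). Of 8 genes for other flavoprotein partners and flavin supply 4 were tested and 0 called by edgeR or limma, or by DESeq2 where it gave an adjusted p, with at most 1 at an unadjusted p under 0.05 in a comparison, among them Etfrf1, a regulator of the flavoprotein, at −0.05 ± 0.10 for the mean diet effect (edgeR adjusted p = 0.95), and Rfk, riboflavin kinase, at −0.05 ± 0.23 (0.98). All 9 listed subunits of complex III, which receives the electrons through ubiquinone, were tested and 0 were called by edgeR or limma, with at most 3 at an unadjusted p under 0.05 in a comparison, while DESeq2 called 1 of the 5 it gave an adjusted p for the PparDA diet effect. The median diet effect was 0.12 in WT and 0.15 in PparDA. Uqcrh and Uqcr11 had the smallest p for the mean diet effect, at 0.14 ± 0.08 and 0.11 ± 0.06 (edgeR adjusted p = 0.62 each).

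Of 17 classical PPAR targets outside the members 9 were tested. In WT 6 of the 9 were higher on the high-fat diet, and 2 were called by edgeR, 2 by DESeq2 and 1 by limma. The fatty acid binding protein gene Fabp1 rose most, with 1440 ± 675 CPM in WT high-fat and 143 ± 29.7 CPM in WT control cells (log2 fold change 3.33 ± 0.64, edgeR adjusted p = 0.035). In PparDA 5 of the 9 were higher on the high-fat diet and 0 were called by edgeR or limma or at an unadjusted p under 0.05, or by DESeq2 among the 3 it gave an adjusted p. Angptl4, an inhibitor of lipoprotein lipase, was called higher in PparDA than in WT control cells, the comparison in which Acadl was called as well. It had 13.3 ± 7.24 CPM in PparDA control and 1.9 ± 2.27 CPM in WT control cells (log2 fold change 2.71 ± 0.72, edgeR adjusted p = 0.044). The WT control level was near 0 with an SD above the mean, so this fold is imprecise.

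**Figure D4:**
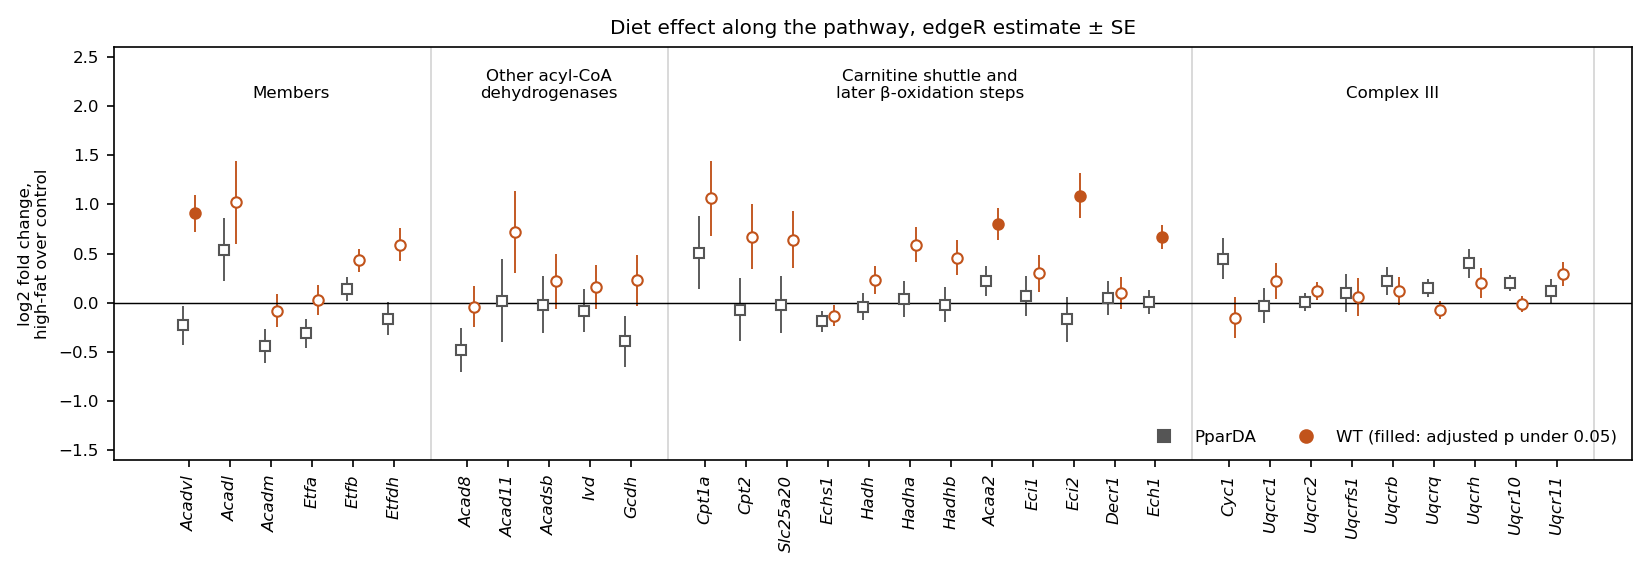
log2 fold change of high-fat over control diet (y axis) for the tested members and 3 neighbouring gene groups (x axis) in PparDA (squares) and WT (circles), as edgeR estimate ± SE, filled where the adjusted p was under 0.05. In WT 1 member and 3 genes of the later steps are called, and in PparDA none is.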

How the data were processed

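Expected counts, which the authors had rounded to whole numbers, were the values tested, and the deposited log2(CPM + 1) values served only the limma alternative. Per the submitters' processing notes the tools were R 4.0.2, edgeR 3.30.2 and Salmon 1.1.0 and the build mm10, without roles. The annotation release, the strand setting and the use of molecular identifiers are not given, so reads may not be independent molecules and counting error is a lower bound.

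Of the 54418 identifiers, 54096 were given symbols from GENCODE M21 (GRCm38). Genes were kept by filterByExpr of edgeR 4.0.16 (minimum count 10, minimum total 15), leaving 5872 that hold 97.1 to 97.7% of the counts. TMM factors were 0.938 to 1.07 and the biological coefficient of variation 21.7%. In R 4.3.3 the 32 libraries were fitted by quasi-likelihood with a coefficient for each group. Two-sided p-values were adjusted by Benjamini-Hochberg over the 5872 genes of a comparison. The SE is the log2 fold change divided by the square root of F. Alternatives used DESeq2 1.42.0 and limma 3.58.1.

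Columns give each library's group and its number but no replicate number. Members and gene lists were chosen with earlier results of these data known. Named were all members, up to 4 called genes of each list (or 2 with the smallest p for the mean diet effect) and the 5 genes most like the members. Some genes the rule gave are not reported here, though counts include them. On simulated data for the WT diet comparison, 5.13% of 78 genes changed 1.5-fold, 44.1% of 59 changed 2-fold and 93.7% of 63 changed 4-fold were called, and 1 of 5672 unchanged genes. The simulation had no run effect. It also had many more changed genes than the 6 of 5872 called in the real comparison, which eases the adjusted threshold. These shares may thus be too high for the real data.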

Additional observations from a re-analysis of the deposited data

Results flagged for a closer look

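In 3 of 56 combinations of member and group a single library stood apart from the other 3, with a gap to the nearest library, as a share of the whole range, above Dixon's critical value. Chance flags about 1 in 20 groups. All 3 concern Acadvl. WT high-fat library 25 had 192 CPM, against 127, 131 and 129 CPM in the other WT high-fat libraries. WT control library 1 had 97.7 CPM, against 70.4, 68.4 and 70.4 CPM in the other WT control libraries. PparA control library 13 had 52.4 CPM, below the 90.2, 88.3 and 87.9 CPM of the other PparA control libraries. Among the PparA control libraries it had the highest enterocyte marker sum (4400 CPM, lowest 1280 CPM) and enteroendocrine marker sum (195 CPM, lowest 61 CPM). The highest Paneth and goblet sums of that group were in libraries 29 and 5. The part of these markers was not tested. Without library 25 the diet effect in WT missed the threshold, and without library 1 it was called.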

How the results depend on the processing

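Counts of called members changed as follows. The WT diet count of 1 became 0 with library totals as scaling, with limma on the deposited log2 values, with only the compared groups in the fit and within each pair of runs. The mean diet count of 2 became 0 within each pair of runs. The PparA diet count of 0 became 1 (Acadl) with a robust prior. The count of 1 for PparDA against WT control became 0 with library totals, with a looser filter, with DESeq2 and within each pair of runs. That for PparDA against WT on the high-fat diet became 0 within each pair of runs, and that against PparD became 0 within runs 2 and 4. For PparDA against PparA it became 1 with DESeq2. Leaving out each library in turn gave 0 to 1 called members for the WT diet, the PparA diet and PparDA against WT control, 2 for the mean diet, 1 for PparDA against WT and against PparD on the high-fat diet, and 0 for the other comparisons. DESeq2 gave no adjusted p for any member for the PparDA diet effect and for the PparA difference from WT.

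The labels state no pairing of libraries, and the main fit had no term for run. The replicate titles follow the same order of groups as the library numbers, while the columns carry no replicate number. With group means removed, libraries of a run correlated at a median r of 0.155 and a minimum of −0.0286. Libraries of different runs correlated at a median of −0.0741, and 31 of 32 libraries correlated best with their own run, so the runs do share variation. With the run as a replicate block, the difference of the PparDA from the WT diet effect gained 1 call (Acadvl −1.13, adjusted p = 0.045), PparDA against WT control had 2 (Etfdh 0.54, adjusted p = 0.029) and PparDA against PparA 1 (Acadvl, 0.025). The mean diet effect had 3, with Acadvl at 0.34 (adjusted p = 0.031), and the WT call of Acadvl was kept.

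Small estimates changed sign. Acadm in WT was 0.04 within runs 2 and 4. Etfa in WT was −0.05 with library totals, −0.04 with limma and −0.04 within runs 1 and 3, in PparD −0.02 within runs 2 and 4, and in the mean 0.03 within runs 1 and 3. Etfdh in PparA was 0.00 with a filter at 10 CPM and with DESeq2, and 0.08 within runs 1 and 3. The Acadl difference from WT was 0.09 with limma and 0.61 within runs 1 and 3 for PparD, and 0.14 within runs 1 and 3 for PparDA. Leaving out libraries gave −0.01 to 0.09 for Etfa in WT, −0.06 to 0.15 for Etfa and −0.02 to 0.18 for Etfdh in PparD, −0.04 to 0.20 for Acadm and −0.17 to 0.09 for Etfdh in PparA, −0.04 to 0.02 for Etfa in the mean and −0.34 to 0.20 for the Acadl difference of PparD. Of 610 other member values, 575 kept direction and side of the threshold. The cause of these changes was not tested. Acadl is limited by its few counts.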
